A study of Sus scrofa with 6 samples.

Results

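The sirtuins and the enzymes that make or clear NAD were described across 6 RNA libraries of pig subcutaneous fat. The 10 genes are SIRT1, SIRT2, SIRT3, SIRT5, SIRT6, SIRT7, NAMPT, NNMT, NMNAT1 and NMNAT3. They were taken by symbol, matched through their Ensembl identifiers, and make up 10 of the 22844 rows in each deposited library table. The rule names them by symbol and uses no measured value, though the set was drawn up with earlier results of these data known. Each of the 10 symbols matched 1 row. All 10 averaged 0.5 TPM or more and so belong to the 14908 rows tested, and all 10 had reads in every library. TPM is a level scaled for transcript length and library total.

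The pigs were Duroc × Landrace × Yorkshire hybrids. One group ate a control diet, and the feed of the other held resveratrol at 400 mg/kg. Resveratrol is a polyphenol of grapes and other plants, studied for its reported action on SIRT1. Each group has 3 libraries, called control 1 to 3 and resveratrol 1 to 3 here, as numbered in the labels. The labels give neither age, sex nor length of feeding, and they do not say whether each library is another animal. A p-value therefore reflects only how far these samples spread, and that spread may be technical.

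NAD carries electrons in metabolism and is also consumed as a substrate. Sirtuins are deacylases that remove acyl groups from lysines and split NAD into nicotinamide as they do so. NAMPT turns nicotinamide into nicotinamide mononucleotide, the step that limits NAD recycling, and the NMNAT enzymes add the adenylate part that completes NAD. NNMT instead methylates nicotinamide and so removes it from recycling. In fat, SIRT1 is known as a deacetylase of regulators of lipid metabolism, SIRT3 as the main mitochondrial deacetylase, and NAMPT as an enzyme whose transcription the circadian clock drives.

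Control 2 was the shallowest library at 16251536 reads, and the other 5 held 31528317 to 37943877 reads. All 7 measured adipocyte markers were present, led by FABP4, the fatty acid carrier (11828 to 19979 TPM), and ADIPOQ, which encodes adiponectin (3614 to 4042 TPM in control, 4437 to 4683 TPM in resveratrol, with no overlap). The adipocyte markers summed to 17240 to 24167 TPM in control and 21091 to 26707 TPM in resveratrol, and 0 of 7 had an unadjusted p under 0.05 in edgeR and 1 of 7, ADIPOQ, in DESeq2 (0.0268). All 4 measured skeletal muscle markers, led by TNNI2 and CKM, stayed under 1 TPM in each library. Markers of other cells were not even across the libraries. The 6 tendon and cartilage markers, led by FMOD and COMP, summed to 323.6 TPM in control 1, 28.6 and 65.1 TPM in control 2 and 3, and 16.0 to 28.3 TPM in resveratrol. The 10 macrophage markers, led by C1QA and TYROBP, summed to 468.8 to 551.4 TPM in control and 589.1 to 855.4 TPM in resveratrol, and all 10 had a positive log2 fold change, 5 of them at an unadjusted p under 0.05 in edgeR. The 5 measured neutrophil and mast cell markers, led by S100A12 and KIT, summed to 99.96 to 143.4 TPM against 147.8 to 271.5 TPM. Of these 5, 3 were higher at an unadjusted p under 0.05 in edgeR. Of the 6 tendon and cartilage markers 4 were lower at that threshold, and 1 of those 4 had a DESeq2 adjusted p under 0.05. Over all tested rows 2.21% were higher and 4.32% lower at an unadjusted p under 0.05 in edgeR. Stromal (COL3A1, COL1A1 and others, 4378 to 7603 against 4009 to 5613 TPM), endothelial (PECAM1, CDH5 and others, 192.8 to 259.2 against 189.0 to 206.6 TPM) and lymphocyte sums (NKG7, CD3D and others, 19.5 to 22.1 against 16.3 to 36.6 TPM) overlapped. Of their markers only COL1A1 had an unadjusted p under 0.05 in edgeR (0.0243), and it was lower in resveratrol. In whole tissue, fewer cells of a type and less RNA per cell cannot be told apart.

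None of the 10 genes passed the adjusted threshold in edgeR, and 0% of all tested rows did (0 of 14908, smallest Benjamini-Hochberg adjusted p = 0.409). In DESeq2 0 of the 10 genes passed, against 0.268% of all rows. At an unadjusted p under 0.05 edgeR gave 1 of the 10, NMNAT1, which was higher in resveratrol. Over all tested rows that share was 6.53%, made of 2.21% higher and 4.32% lower in resveratrol. Of the rows at that threshold 33.8% were higher, and 64.1% when counts were scaled by library totals alone, which moved the median of all rows from -0.0075 to 0.0567. DESeq2 also gave 1 of 10 at an unadjusted p under 0.05, again NMNAT1, against 7.38% of all rows. The log2 fold change was positive for 7 of the 10 genes and for 48.8% of all rows, and its median was 0.12 in the 10 genes and -0.0075 in all rows. The number of positive members was 5 without control 2, 6 with limma on TPM and 8 with library totals alone. In TPM, 0 of the 10 genes had groups that did not overlap, against 12.3% of all rows. In CPM, read counts scaled to a common library total with TMM factors (trimmed mean of M values), the figure was again 0 of 10, against 12.6%.

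**Figure D1:**
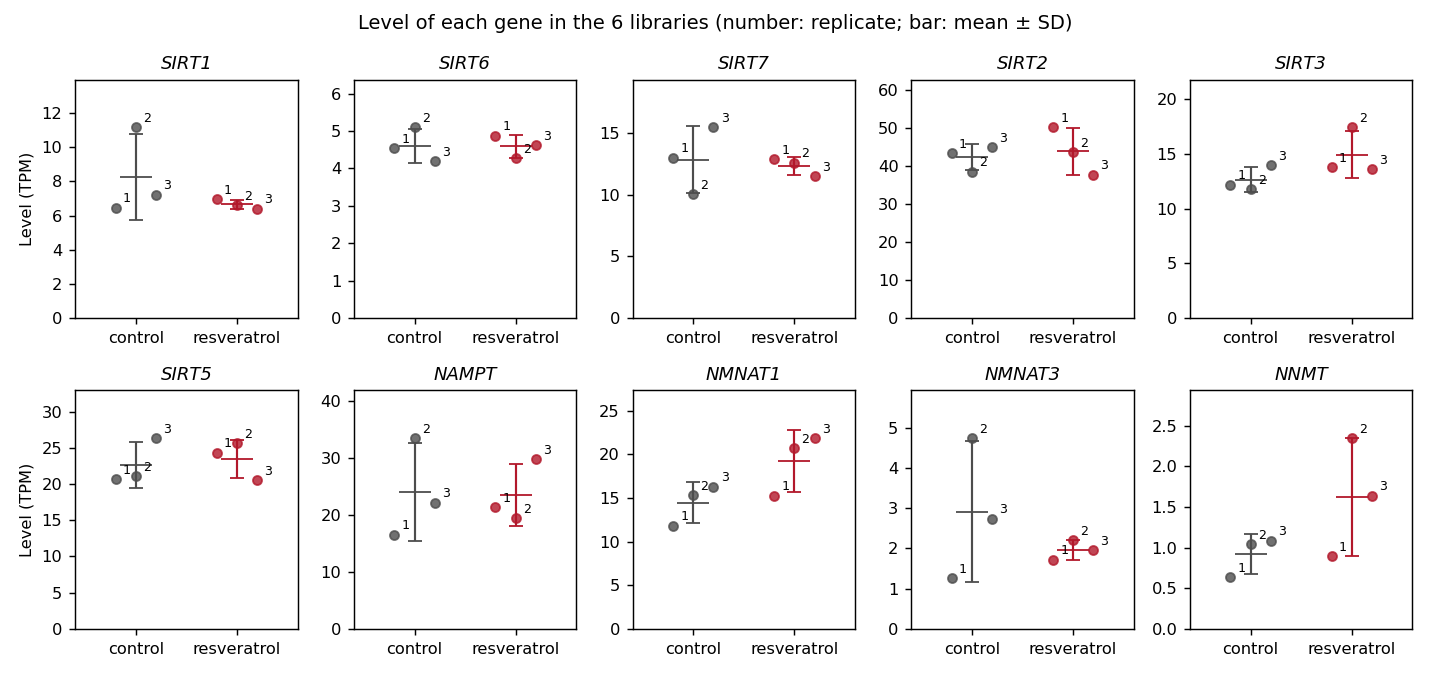
Level of each of the 10 genes in TPM (y axis, from 0) in the control and resveratrol libraries; numbered points are single libraries and bars are the mean ± SD of 3. The control and resveratrol points overlap in every panel. Control 2 stands highest for SIRT1 (11.2 TPM), SIRT6 (5.10 TPM), NAMPT (33.4 TPM) and NMNAT3 (4.74 TPM).

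The levels spanned a wide range. SIRT2 was the most abundant of the 10 genes at 43.1 ± 4.55 TPM (SD over all 6 libraries), and its mean lay at the 85.4th percentile of the tested rows. NAMPT followed at 23.8 ± 6.46 TPM and SIRT5 at 23.1 ± 2.65 TPM. These neighbours did not differ beyond their spread, and NAMPT stood above SIRT5 in only 2 of 6 libraries. NMNAT1 averaged 16.9 ± 3.74 TPM, SIRT3 13.8 ± 1.99 TPM and SIRT7 12.5 ± 1.79 TPM. SIRT3 exceeded SIRT7 in 4 of 6 libraries and NMNAT1 exceeded SIRT3 in 5 of 6, so this middle group also overlapped. SIRT1 averaged 7.47 ± 1.83 TPM, near the middle of all tested rows (46.3th percentile), and SIRT6 4.60 ± 0.344 TPM. SIRT1 was above SIRT6 in 6 of 6 libraries. NMNAT3 averaged 2.44 ± 1.23 TPM. NNMT was the lowest at 1.27 ± 0.620 TPM, at the 11.3th percentile.

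Of the nuclear sirtuins, SIRT1 deacetylates histones and transcription factors. SIRT1 (ENSSSCG00000010235.3) measured 6.45, 11.2 and 7.22 TPM in control 1, 2 and 3, against 6.95, 6.62 and 6.41 TPM in resveratrol 1, 2 and 3. Control 2 alone stood high, and the other 5 libraries lay between 6.41 and 7.22 TPM. The log2 fold change was -0.19 (SE 0.17, 95% interval -0.57 to 0.19), and edgeR's adjusted p was 0.790. Without control 2 it was -0.03 (SE 0.13). As a ratio to control, the interval over all 6 libraries ran from 0.672 to 1.14.

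SIRT6, a histone deacetylase that acts in DNA repair and restrains glycolytic genes, varied least of the 10. SIRT6 (ENSSSCG00000013496.3) measured 4.53, 5.10 and 4.20 TPM in control 1, 2 and 3, against 4.87, 4.27 and 4.62 TPM in resveratrol 1, 2 and 3. Its highest library was 1.21 times its lowest, and the diets fell within the same range. The log2 fold change was 0.09 (95% interval -0.36 to 0.54) on counts and -0.004 in limma on log2(TPM + 0.5), so its sign differed between these scales.

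SIRT7 is the nucleolar sirtuin, linked to transcription of ribosomal RNA genes. SIRT7 (ENSSSCG00000034695.1) measured 13.0, 10.02 and 15.4 TPM in control 1, 2 and 3, against 12.8, 12.6 and 11.5 TPM in resveratrol 1, 2 and 3. The control libraries held both the lowest and the highest value. SIRT7 had a log2 fold change of -0.01 (95% interval -0.50 to 0.49). It was -0.22 without control 2 and 0.20 without control 3.

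SIRT2, the cytosolic sirtuin known as a tubulin deacetylase and a brake on fat cell differentiation in culture, was the main sirtuin transcript of this fat. SIRT2 (ENSSSCG00000026794.2) measured 43.4, 38.4 and 45.0 TPM in control 1, 2 and 3, against 50.1, 43.6 and 37.7 TPM in resveratrol 1, 2 and 3. In TPM the resveratrol libraries bracketed those of control on both sides, while in CPM control 2 was the lowest library (56.9). SIRT2 had a log2 fold change of 0.12 (SE 0.18, 95% interval -0.28 to 0.52), and -0.02 without control 2.

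Of the mitochondrial sirtuins, SIRT3 activates enzymes of fatty acid oxidation and antioxidant defence by deacetylation. SIRT3 (ENSSSCG00000014558.3) measured 12.2, 11.8 and 13.95 TPM in control 1, 2 and 3, against 13.8, 17.4 and 13.6 TPM in resveratrol 1, 2 and 3. Resveratrol 2 was the highest library, while control 3 lay above resveratrol 1 and 3 in TPM. In CPM control 3 (20.2) lay above resveratrol 1 (19.3) and below resveratrol 3 (20.9). SIRT3 had a log2 fold change of 0.31 (SE 0.19, 95% interval -0.11 to 0.72, edgeR adjusted p = 0.739), the largest among the sirtuins in these libraries. It was 0.18 without control 2. SIRT5 removes succinyl and malonyl groups from mitochondrial enzymes. SIRT5 (ENSSSCG00000031129.1) measured 20.6, 21.1 and 26.3 TPM in control 1, 2 and 3, against 24.3, 25.6 and 20.5 TPM in resveratrol 1, 2 and 3. In TPM each diet had libraries near both ends of the range, while in CPM control 2 (22.7) was the lowest and control 3 (34.5) the highest. SIRT5 had a log2 fold change of 0.11 (95% interval -0.29 to 0.52), and -0.02 without control 2.

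SIRT4, a mitochondrial sirtuin outside the 10 genes, completes the family and measured 2.11 to 3.13 TPM in control and 2.41 to 2.77 TPM in resveratrol. Within the summed TPM of the 7 sirtuins, SIRT2 made up 38.2% to 43.5% in each library, SIRT5 20.1% to 23.1%, SIRT3 11.7% to 15.4% and SIRT7 9.95% to 13.5%. SIRT1 made up 11.1% in control 2 and 5.86% to 6.61% in the other 5 libraries. No share of a sirtuin separated the diets. SIRT3 had the smallest p of the 7, with shares of 11.9%, 11.7% and 12.2% in control 1, 2 and 3, against 11.9%, 15.4% and 14.02% in resveratrol 1, 2 and 3 (two-sided exact permutation p = 0.20).

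**Figure D2:**
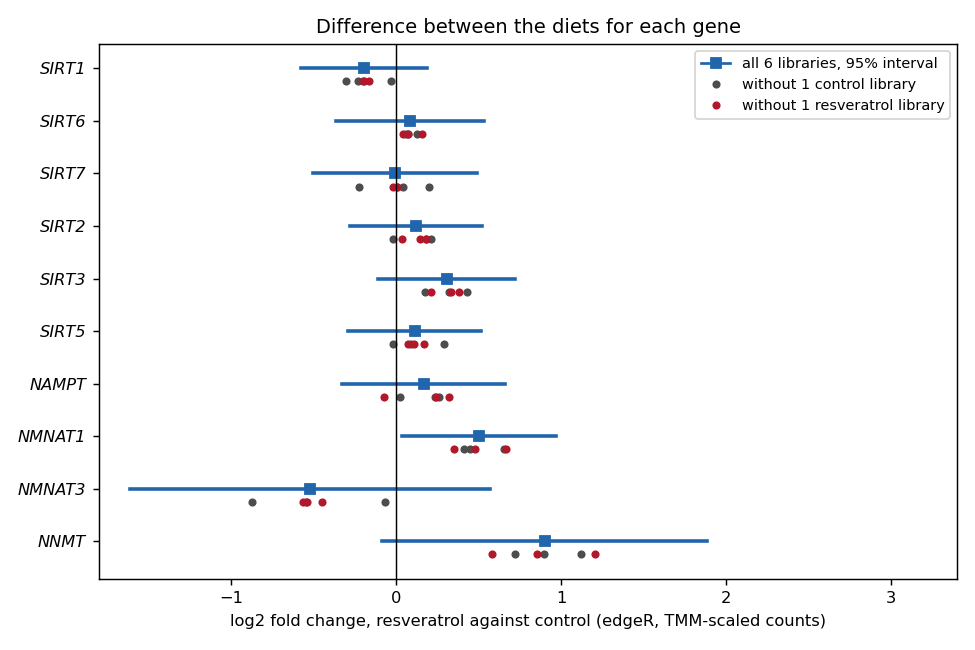
Log2 fold change of resveratrol against control (x axis) for each of the 10 genes; squares and blue lines are the edgeR value and its 95% interval over 6 libraries, and small points are the values with 1 control (grey) or 1 resveratrol (red) library left out. Only the NMNAT1 interval lies wholly above 0, and the NMNAT3 and NNMT intervals are the widest.

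NAMPT (ENSSSCG00000015435.3), which catalyses the limiting step of NAD recycling and is also secreted by fat as visfatin, measured 16.5, 33.4 and 22.1 TPM in control 1, 2 and 3. It measured 21.3, 19.4 and 29.7 TPM in resveratrol 1, 2 and 3. Control 2 and resveratrol 3 were high, control 1 was low, and the groups overlapped over most of their range. Mean TPM was 24.0 ± 8.62 in control against 23.5 ± 5.48 with resveratrol (SD, n = 3 each), whereas the count-based log2 fold change was 0.17 (SE 0.22, 95% interval -0.33 to 0.66). It was 0.32 without resveratrol 2, 0.02 without control 1 and -0.07 without resveratrol 3. Over the alternatives its adjusted p ran from 0.719 to 0.9999, with edgeR, limma or DESeq2.

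The gap between TPM and counts for NAMPT sat mostly in control 2. On TMM-scaled counts NAMPT measured 38.7, 54.9 and 53.3 CPM in control 1, 2 and 3, against 49.8, 42.8 and 72.3 CPM in resveratrol 1, 2 and 3, so control 2 was level with control 3 rather than highest. The deposited row of NAMPT joins 6 transcripts, and TPM, as usually computed, divides reads by the length of the transcript they are assigned to. Reads per TPM, divided by the library's median for single-transcript rows, then tracks the mean length of the transcripts that took the reads. The division takes out a part of the gap that is common to a library. SIRT1, a row of 1 transcript, also had more TPM per CPM in control 2 than in control 1. It measured 11.2 TPM and 35.6 CPM in control 2, against 6.45 TPM and 24.9 CPM in control 1. How the NAMPT gap divides between these parts was not tested. For NAMPT this index was 1.19 in control 2 and 1.37 to 1.44 in the other 5 libraries. Its highest library was 1.21 times its lowest. Over 6855 multi-transcript rows with at least 100 reads in each library the median of that ratio was 1.02 and the 90th percentile 1.07. A lower index is a shorter mean length of the transcripts that took the NAMPT reads. Depth was also lowest in control 2, and its part in this value was not tested.

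**Figure D3:**
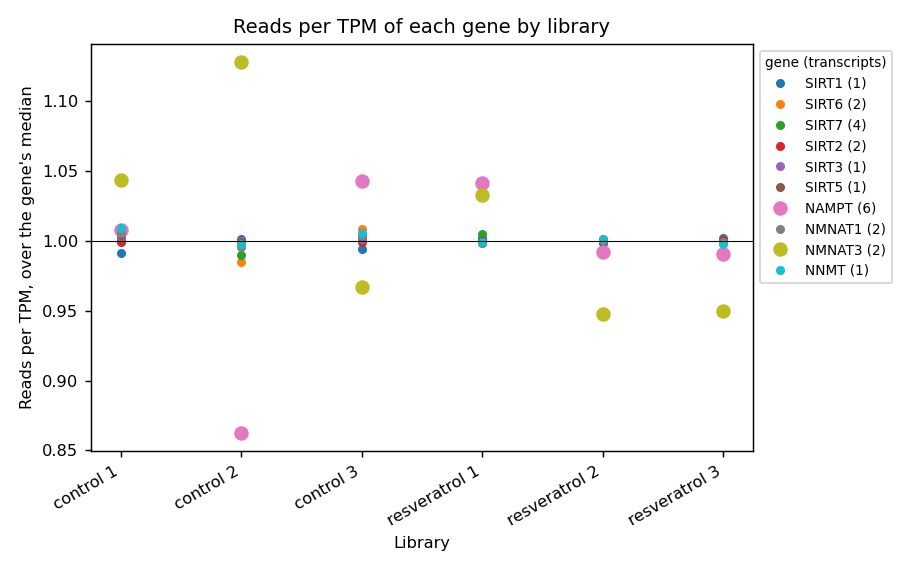
Reads per TPM of each of the 10 genes by library (y axis, relative to the gene's median over the 6 libraries; the number of transcripts in the deposited row stands in parentheses). NAMPT in control 2 and NMNAT3 across libraries depart from 1, while the other 8 genes stay near it, with a highest library at most 1.02 times the lowest.

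NMNAT1 (ENSSSCG00000003400.3), the nuclear enzyme of the last step, measured 11.8, 15.3 and 16.3 TPM in control 1, 2 and 3, against 15.2, 20.7 and 21.9 TPM in resveratrol 1, 2 and 3. Resveratrol 2 and 3 lay above every control library, and resveratrol 1 lay among them. NMNAT1 had a log2 fold change of 0.50 (SE 0.21, 95% interval 0.03 to 0.97), or 1.41-fold, with an unadjusted p = 0.0380 and an edgeR adjusted p = 0.733. The direction was the same in all 16 alternatives run, at 0.35 to 0.67. The unadjusted p was above 0.05 without control 1 (0.112), control 2 (0.0834), resveratrol 2 (0.0932) or resveratrol 3 (0.164), and with limma at a pseudocount of 0.5 TPM (0.0803) or 1 TPM (0.0805). The summed macrophage markers, whose 2 groups did not overlap, were highest in resveratrol 1 (855.4 TPM), the resveratrol library with the least NMNAT1. Control 1, the library with the least NMNAT1 of all, had the highest tendon and cartilage sum (323.6 TPM). It also had the lowest adipocyte sum (17240 TPM). The part of these markers in the NMNAT1 values was not tested.

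NMNAT3 (ENSSSCG00000031142.1), the mitochondrial form, measured 1.26, 4.74 and 2.74 TPM in control 1, 2 and 3, against 1.72, 2.21 and 1.95 TPM in resveratrol 1, 2 and 3. The 3 resveratrol libraries lay inside the control range. These levels rest on 14 to 29 reads per library, so counting error alone is large. NMNAT3 had a log2 fold change of -0.52 (SE 0.49, 95% interval -1.61 to 0.57). Without control 2 it was -0.07 and without control 1 it was -0.87. NMNAT2, a Golgi-associated form best known from nerve axons, measured 4.97, 6.24 and 4.45 TPM in control 1, 2 and 3, against 4.13, 4.27 and 3.52 TPM in resveratrol 1, 2 and 3. Every resveratrol library lay below every control library, while the groups of 12.3% of all tested rows did not overlap in either direction. NMNAT2 had a log2 fold change of -0.28 (SE 0.20, edgeR adjusted p = 0.754).

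Within the summed TPM of the 3 NMNAT genes, NMNAT1 made up 65.5%, 58.2% and 69.4% in control 1, 2 and 3, against 72.3%, 76.1% and 80.0% in resveratrol 1, 2 and 3. These were the only groups without overlap among the 10 shares computed, 7 of sirtuins and 3 of NMNAT genes. The two-sided exact permutation p was 0.10, the smallest that 3 against 3 libraries allow, and 0.667 after Benjamini-Hochberg adjustment over the 10 shares. The share combines a higher NMNAT1 in resveratrol with lower NMNAT2 and NMNAT3, none of which passed the adjusted threshold by itself.

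NNMT (ENSSSCG00000015054.3), the methyltransferase that takes nicotinamide out of recycling and is known for high expression in mouse white fat, was scarce in these libraries. Its level was 0.636, 1.04 and 1.08 TPM in control 1, 2 and 3, against 0.895, 2.35 and 1.64 TPM in resveratrol 1, 2 and 3. Resveratrol 2 and 3 were above all control libraries, and resveratrol 1 lay inside the control range. Read counts were 20, 16 and 35 in control and 34, 89 and 62 in resveratrol. The log2 fold change of 0.90 was the largest of the 10 genes, but its SE was 0.44 and its 95% interval ran from -0.08 to 1.89 (edgeR adjusted p = 0.733). It was 0.58 without resveratrol 2 and 1.21 without resveratrol 1, where the unadjusted p of edgeR was 0.0212. The level of NNMT was 0.0312 to 0.0490 times that of NAMPT in control and 0.0419 to 0.121 times in resveratrol, with overlapping groups.

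**Figure D4:**
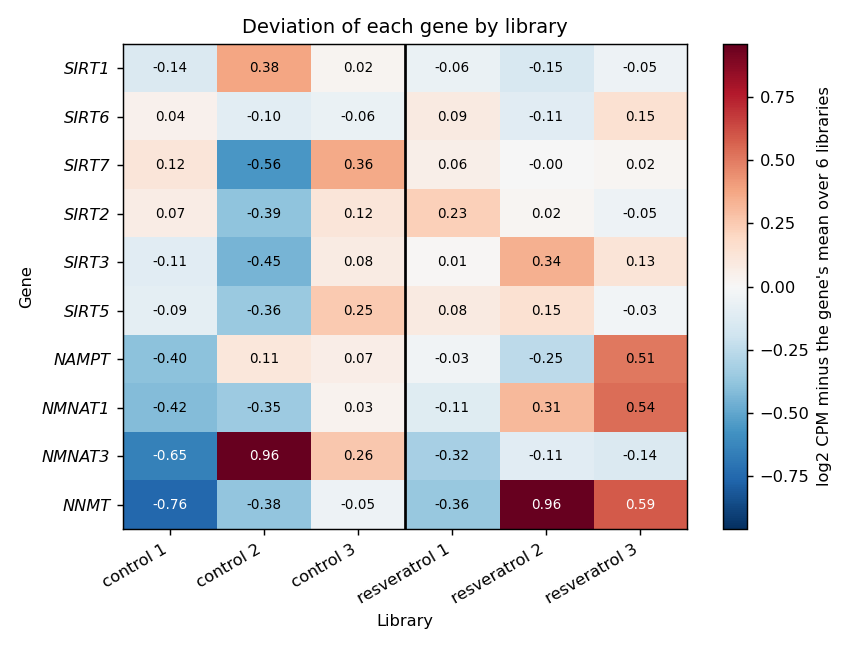
Deviation of each of the 10 genes (rows) from its mean over the 6 libraries (columns), in log2 CPM after TMM scaling with a prior count of 2; red is above and blue below the mean. Control 2 is high for SIRT1 (0.38) and NMNAT3 (0.96) and low for SIRT7 (-0.56), SIRT3 (-0.45), SIRT2 (-0.39) and SIRT5 (-0.36).

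Several of the 10 genes deviated together in single libraries. In control 2, on TMM-scaled log2 CPM, SIRT1 and NMNAT3 stood high while SIRT7, SIRT3, SIRT2 and SIRT5 stood low. Over the 6 libraries the Pearson correlation was 0.92 for SIRT1 and NMNAT3, 0.87 for SIRT7 with SIRT5 and with SIRT2, and -0.82 for SIRT1 and SIRT3. NMNAT1 and NNMT, both highest in resveratrol 2 and 3, had a correlation of 0.91. These values describe 6 points that share library depth and composition, with control 2 at one end of most of them.

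The genes most like 3 of the members over the 6 libraries were taken among 7679 or 7680 named genes with a mean of at least 5 TPM. They were RTN4, SEC61A2 and SOS1 for SIRT1 (Pearson r = 0.992, 0.991 and 0.989) and LACTB2, PSMA3 and SKP1 for NAMPT (0.992, 0.989 and 0.989). For NNMT they were JARID2, RAE1 and TMEM120B (0.984, 0.972 and 0.960). An r of at least 0.9 was reached by 164 genes for SIRT1, 150 for NAMPT and 37 for NNMT, so with 6 points many genes look alike.

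The other genes of the pathway were read from lists set by role. Of 90 tested genes in the 10 lists, the 10 members included, 0 passed the adjusted threshold in edgeR and 3 passed in DESeq2, all 3 of the clock list. At an unadjusted p under 0.05 there were 10 (11.1%, against 6.53% of all rows), 3 higher and 7 lower in resveratrol, and 5 of the 7 lower ones were clock genes. Without the members and the clock list, 4 of 69 genes (5.80%) had an unadjusted p under 0.05, 2 in each direction, with a median log2 fold change of 0.02. These p-values and those of each list are from edgeR unless DESeq2 is named. In TPM the groups of 13 of the 90 genes did not overlap, 1 higher and 12 lower in resveratrol, against 12.3% of all rows in either direction. Over all tested rows 612 were higher and 1215 lower without overlap. Of the 12 lower genes 6 were of the clock list. In CPM the groups of 14 of the 90 did not overlap, 5 higher and 9 lower. Over all tested rows that was 12.6%, 845 higher and 1039 lower.

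**Figure D5:**
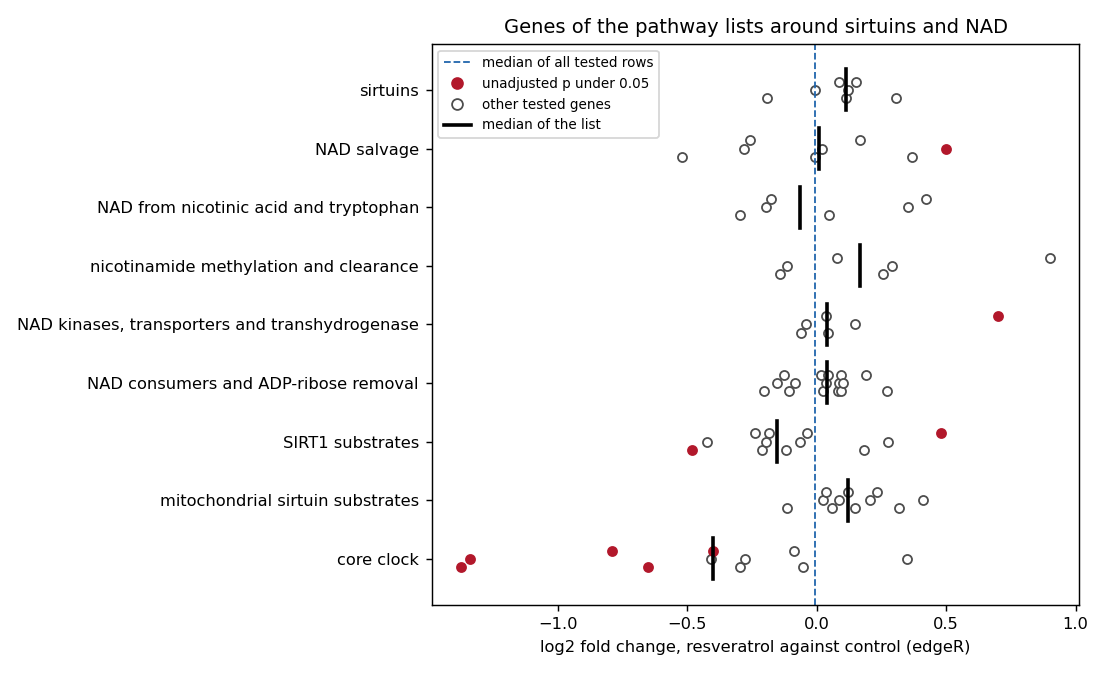
Log2 fold change of resveratrol against control (x axis) for the tested genes of 9 pathway lists (rows); filled red points have an unadjusted p under 0.05, black bars are list medians and the dashed line is the median of all tested rows (-0.0075). The clock list lies furthest to the left, with a median of -0.40.

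In the salvage list 1 of 8 tested genes, NMNAT1, had an unadjusted p under 0.05, and 4 of 8 were higher (median 0.01). NMRK1, the kinase that brings nicotinamide riboside into NAD, averaged 26.4 ± 6.28 TPM in control against 31.3 ± 5.39 TPM with resveratrol (SD, n = 3 each), with a log2 fold change of 0.37 (SE 0.21). The list of synthesis from nicotinic acid and tryptophan had 6 tested genes of 10 measured and none at an unadjusted p under 0.05 in edgeR or DESeq2 (median -0.06). NADSYN1, the last enzyme of both routes, averaged 8.91 ± 1.01 and 10.5 ± 3.12 TPM, and HAAO of the tryptophan route 3.01 ± 0.924 and 2.88 ± 0.227 TPM in control and resveratrol. IDO1, TDO2, IDO2 and QPRT lay below the filter. QPRT, which joins the tryptophan route to NAD, had 1 read in resveratrol 2 and 0 reads in the other 5 libraries.

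In the list of nicotinamide methylation and clearance, 0 of 6 tested genes had an unadjusted p under 0.05 in edgeR or DESeq2, and 4 of 6 were higher (median 0.17). MAT2A and MAT2B, which form the methyl donor that NNMT uses, averaged 47.3 ± 22.6 and 51.1 ± 6.98 TPM in control and 39.2 ± 9.76 and 57.0 ± 3.48 TPM in resveratrol. MAT2A was high in control 2 at 73.2 TPM. The list of kinases, transporters and transhydrogenase also holds hydrolases, and 1 of its 6 tested genes had an unadjusted p under 0.05. It was NUDT7, a peroxisomal hydrolase of coenzyme A, at 16.3, 23.1 and 23.9 TPM in control 1, 2 and 3, against 38.9, 35.3 and 23.9 TPM in resveratrol 1, 2 and 3 (log2 fold change 0.70, SE 0.21, edgeR adjusted p = 0.733). Resveratrol 3 was level with control 3 in TPM, while in CPM the groups did not overlap. NADK, which makes NADP from NAD in the cytosol, was the most abundant gene of that list at 105.9 ± 15.0 TPM in control against 95.7 ± 16.4 TPM with resveratrol, with a log2 fold change of -0.06 (SE 0.22).

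The list of other NAD consumers also holds PARG, ADPRS and MACROD1, which remove ADP-ribose and do not use NAD. None of its 16 tested genes had an unadjusted p under 0.05 in edgeR or DESeq2, and their log2 fold changes ran from -0.20 to 0.27 with a median of 0.04. PARP1, which uses NAD in DNA repair, averaged 10.3 ± 1.45 TPM in control against 10.4 ± 0.691 TPM with resveratrol. CD38, the NAD hydrolase of immune cells, averaged 3.26 ± 1.09 and 2.71 ± 0.625 TPM. MACROD1 and TNKS2, a polymerase that uses NAD, were the 2 most abundant of the list and had log2 fold changes of 0.02 and 0.09.

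Of 12 tested SIRT1 substrates 2 had an unadjusted p under 0.05, with 3 higher, 9 lower and a median of -0.15. In TPM 5 of the 12 had groups that did not overlap, NR1H3 higher and EP300, FOXO1, STAT3 and KAT2B lower, and in CPM this was so for NR1H3, EP300 and STAT3. Over all tested rows the groups of 12.3% did not overlap in TPM and those of 12.6% in CPM. NR1H3, the oxysterol receptor LXR alpha, measured 45.2, 41.5 and 39.7 TPM in control 1, 2 and 3, against 55.3, 56.9 and 52.9 TPM in resveratrol 1, 2 and 3, and the lowest resveratrol library lay above the highest of control (log2 fold change 0.48, SE 0.16, edgeR adjusted p = 0.733). EP300, a histone acetyltransferase, measured 9.12, 13.3 and 7.41 TPM in control 1, 2 and 3, against 6.89, 7.38 and 5.46 TPM in resveratrol 1, 2 and 3 (log2 fold change -0.48, SE 0.19). PPARGC1A, the coactivator of mitochondrial genes that SIRT1 deacetylates, lay below the filter at 0.0524 to 0.164 TPM.

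Of 11 tested mitochondrial substrates of SIRT3 and SIRT5 none had an unadjusted p under 0.05 in edgeR, while 10 of 11 were higher with a median of 0.12. DESeq2 gave 1, ACADL, a dehydrogenase of beta-oxidation, whose log2 fold change in edgeR was 0.41 (SE 0.19, unadjusted p = 0.0550, against 0.0455 in DESeq2) and whose groups overlapped in TPM but not in CPM. SOD2, the mitochondrial superoxide dismutase, averaged 206.2 ± 45.9 TPM in control against 216.4 ± 31.6 TPM with resveratrol. ECHS1, a hydratase of beta-oxidation, averaged 437.4 ± 175.0 and 526.8 ± 57.2 TPM. Both differences were smaller than the spread between the control libraries.

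Clock genes were listed because the CLOCK and BMAL1 complex drives NAMPT. Of 11 tested, 10 were lower and 5 had an unadjusted p under 0.05, all lower (NR1D1, PER2, PER1, CRY2 and NR1D2), with a list median of -0.40. NR1D1, a repressor of the clock loop, and PER2 stood at -1.37 (SE 0.26) and -1.34 (SE 0.29) on the log2 scale, and both passed in DESeq2, as did PER1, but not in edgeR (adjusted p = 0.690 each). These comparisons rest on the same 6 libraries as those of NAMPT. PER1 measured 74.4, 77.6 and 61.8 TPM in control 1, 2 and 3, against 39.4, 40.0 and 30.4 TPM in resveratrol 1, 2 and 3, with no overlap (log2 fold change -0.79, SE 0.18). Of the pair that drives NAMPT, CLOCK stood at -0.30 (SE 0.19) and BMAL1, the 1 clock gene that was higher, at 0.35 (SE 0.27) on the log2 scale, beside 0.17 (SE 0.22) for NAMPT.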

How the data were processed

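Total RNA of 6 fat libraries was sequenced from a lncRNA preparation kit, per the labels' protocols. For each library the authors deposited raw counts of reads (whole numbers) beside TPM, both by gene row, per the file headers. The mouse builds mm8 and mm9, with Bowtie 0.12.2, stand in the submitters' processing notes. Pig build, counting program and strand handling were not given in the sources used here, so no coordinates are printed and reads of overlapping or antisense genes cannot be told apart. Of 22844 rows, 14750 matched a symbol.

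The 14908 rows averaging 0.5 TPM or more were tested with the robust quasi-likelihood test of edgeR 4.0.16 on TMM-scaled counts in R 4.3.3, with Benjamini-Hochberg adjustment over all of them and a threshold of 0.05. The SE is the fold change over the square root of F. Intervals use the moderated degrees of freedom. Alternatives used DESeq2 1.42.0, limma 3.58.1, other scalings and filters, a replicate block and each library left out. The scripts were tested on simulated data. Members and lists were chosen with earlier results of these data known. Named are all members, list genes with an unadjusted p under 0.05 (at most 5) or else the 2 most abundant, CD38, PARP1, NADK, SIRT4, NMNAT2, NMRK1, NAPRT and PPARGC1A, the 3 genes most like SIRT1, NAMPT and NNMT, and the 2 most abundant genes of each marker list. CLOCK, BMAL1, ACADL, FOXO1, STAT3, KAT2B, PARG, ADPRS, QPRT, IDO1, IDO2 and TDO2 and the NMNAT1 share were singled out after their values were seen. NAPRT is not analysed here. One result is not reported here.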

Additional observations from a re-analysis of the deposited data

How the results depend on the processing

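Over 16 alternatives, 148 of 160 log2 fold changes of the 10 genes kept their sign and 0 passed the adjusted threshold. The 12 that turned lay between -0.071 and 0.199, the latter for SIRT7 without control 3. They were SIRT6 with limma at a pseudocount of 0.5 or 1 TPM (-0.004 each), SIRT7 with library totals alone (0.089), no filter (0.005) and the replicate block (0.041), and values with 1 library left out. Leaving out each library in turn gave -0.071 (without resveratrol 3) to 0.319 for NAMPT, -0.021 (without control 2) to 0.211 for SIRT2, -0.017 (without control 2) to 0.288 for SIRT5 and -0.222 to 0.199 for SIRT7. The cause was not tested. Members at an unadjusted p under 0.05 numbered 1, but 2 with library totals alone (NMNAT1 and SIRT3), 0 in both limma fits, and 0 to 2 when 1 library was left out. Members without overlap numbered 0, and 0 to 2 when 1 library was left out (SIRT1 and NMNAT3 without control 1, SIRT7 without control 2, SIRT3 without control 3, NMNAT1 and NNMT without resveratrol 1), where 16.9% to 28.1% of all rows did not overlap. All rows at an unadjusted p under 0.05 numbered 973, and 408 (without resveratrol 3) to 1678 (without control 3). Of these, 33.8% were higher in resveratrol, and 64.1% with library totals alone. The numbers were not taken as pairs because the labels do not say that a number pairs samples. Same-numbered libraries deviated together with correlations of 0.157, 0.074 and 0.2, and each library correlated best with its own number. Whether the numbers mark pairs was not tested. With the replicate block, 0 members passed and 1 had an unadjusted p under 0.05, while all rows at that threshold numbered 1259 in place of 973. Depth limits NMNAT3 and NNMT most, with 14 to 89 reads per library.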
